A study of Mus musculus with 9 samples.

Results

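The genes described here are 10 feedback inhibitors of the canonical Wnt pathway (Axin2, Nkd1, Notum, Wif1, Dkk2, Dkk3, Rnf43, Znrf3, Apcdd1 and Sp5), chosen by name. They were chosen with earlier results of these data known. All 10 of them had a row among the 23955 gene rows of the count table. The samples were 9 mouse organoid cultures, that is, gut epithelium grown outside the animal, analyzed by RNA-seq in 3 groups of 3 described as biological replicates. The MIN group was grown from normal gut epithelium lying next to the polyps of APCmin/+ mice, the Adenoma group from the adenomatous polyps of such mice, and the Sulindac group from such polyps treated in addition with sulindac, a non-steroidal anti-inflammatory drug (NSAID). Every group, including MIN, therefore carried the germline Apc mutation, and all were kept in the same medium with Noggin, EGF, bFGF, R-spondin1 and B27. The age and number of the mice, the dose and duration of sulindac and any vehicle given to the untreated cultures are not given in the sources used here. The comparisons ask how the Wnt feedback genes differ between adenoma and non-adenoma epithelium with the same germline mutation, and how they differ between sulindac-treated and untreated adenoma organoids.

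As background, Wnt ligands bind Frizzled and LRP5/6 receptors at the cell surface, and this stops the destruction complex of Apc, Axin, Gsk3 and casein kinase 1 from marking beta-catenin for breakdown. Stabilized beta-catenin joins TCF/LEF factors on DNA and turns on target genes, several of which encode inhibitors of the pathway itself, so that the signal limits its own strength. In the gut, Wnt signaling maintains the stem cells of the crypt, and loss of Apc function is the common first step of intestinal adenomas. The inhibitors act at different levels: Notum, Wif1 and the Dkk proteins outside the cell, Apcdd1, Rnf43 and Znrf3 at the membrane, Axin2 and Nkd1 in the cytoplasm and Sp5 in the nucleus.

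Sequencing depth lay between 30881206 and 48412477 counts per sample, and 3 counts, taken as the floor of detection, corresponded to 0.0647 to 0.0989 CPM (counts-per-million). CPM was scaled to the total count of the sample multiplied by its TMM normalization factor. The MIN label and the Adenoma label were checked against cell type markers fixed for this report. The 5 epithelial markers (Epcam, Cdh1, Krt8, Krt18, Vil1) summed to between 4468 and 6258 CPM in MIN, between 2904 and 3734 CPM in Adenoma and between 4008 and 4612 CPM in Sulindac, and each was detected in every group, while the 4 leukocyte markers summed to at most 0.337 CPM. The 7 mesenchyme markers had sums of 3.95 to 4.19 CPM in the MIN samples, 1.99 to 2.38 CPM in the Adenoma samples and 0.828 to 1.08 CPM in the Sulindac samples. Of these, Col1a2, Col3a1 and Dcn had 0 counts in all 9 samples, Pdgfrb had 127 to 176 counts per MIN sample and at most 1 in any other sample, and Col1a1 and Pdgfra averaged 1.19 and 0.867 CPM in Adenoma. Markers of epithelial cell types also differed with the groups: the 5 Paneth cell markers summed to 7751 to 10629 CPM in the MIN samples, 938 to 1380 CPM in Adenoma and 172 to 268 CPM in Sulindac, the 4 goblet cell markers to 1641 to 1769, 94.5 to 198.6 and 52.1 to 111.2 CPM, the 5 enterocyte markers to 2140 to 2935, 2.44 to 3.22 and 0.981 to 2.04 CPM, the 3 enteroendocrine markers to 232 to 472, 0.0842 to 0.168 and 0.0920 to 0.408 CPM, and the 4 stem cell markers to 1113 to 2245, 341 to 589 and 150.4 to 333 CPM. The sums of the Paneth and stem cell lists were carried by a few members. Between MIN and Adenoma, Lyz1 (mean 4693 to 41.6 CPM), Itln1 (3901 to 259 CPM) and Ang4 (190.7 to 44.5 CPM) fell whereas Mmp7 (187.6 to 705 CPM) and Pla2g2a (33.7 to 100.6 CPM) rose, and among the stem cell markers Olfm4 (1224 to 0.124 CPM) and Lgr5 (226.9 to 105.6 CPM) fell, Ascl2 (25.1 to 64.9 CPM) rose and Smoc2 stood at 327 and 297 CPM (edgeR, FDR of 1%; adjusted p = 0.689 for Smoc2). The part of these shifts in the results below was not tested.

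All 10 feedback inhibitors were higher in Adenoma than in MIN organoids, at a false discovery rate (FDR) of 1% over all genes (quasi-likelihood test of edgeR, adjusted by Benjamini-Hochberg, 3 samples against 3). Of the 13744 genes tested, 18.5% were called higher at that threshold, 20.1% lower and 38.7% either way. Because the 10 genes were listed with earlier results of these data known, their count beside these shares is a description and not a test. For each of the 10 genes the lowest Adenoma sample lay above the highest MIN sample. The share of all genes tested with such a separation is not given here, so this too is a description only. The rise spanned a wide range of size, from 2.66-fold for the mean CPM of Znrf3 to 505.3-fold for that of Notum. The median log2 fold change of the 10 genes was 3.19, against -0.01 for all genes tested. Dkk2 and Dkk3 passed the low-count filter only through their Adenoma samples, so their difference was bound up with being tested at all. Because these are bulk samples, more cells that express a gene and more RNA per cell cannot be told apart.

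**Figure D1:**
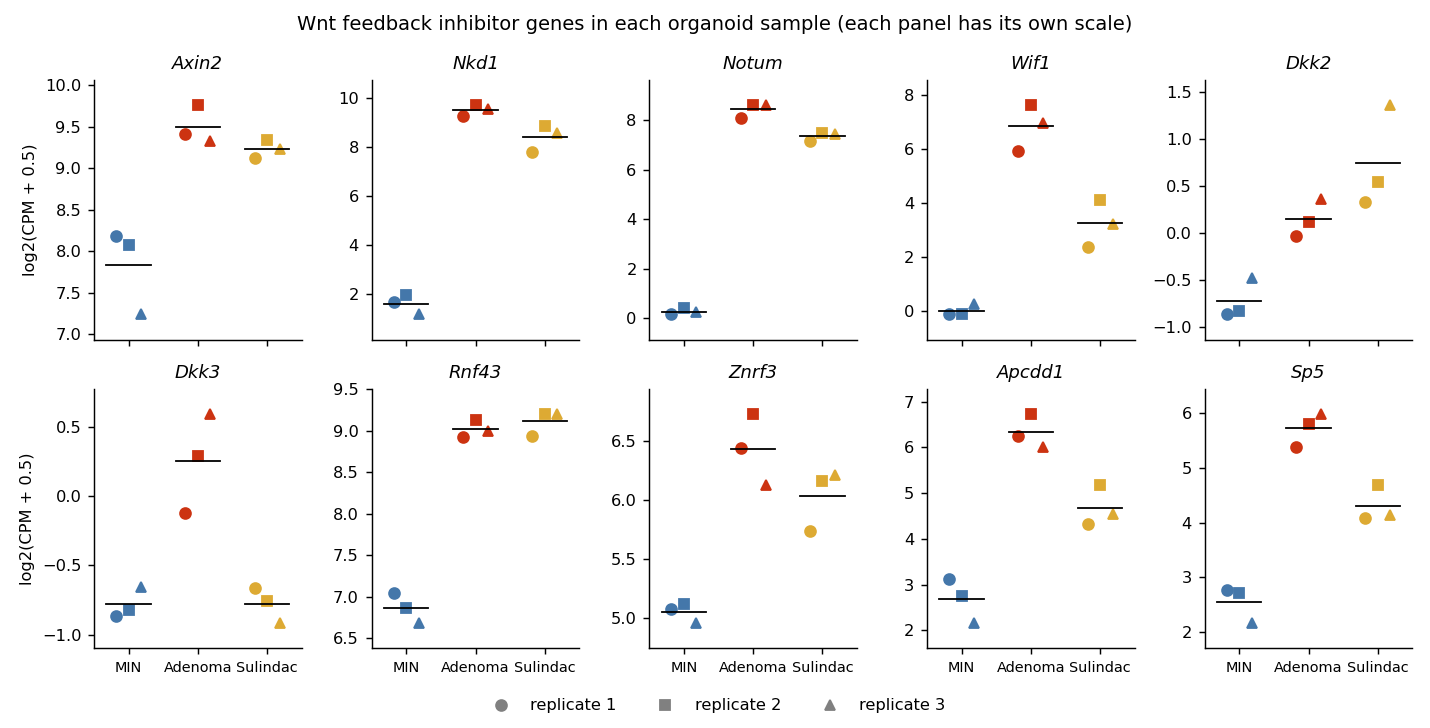
Level of each feedback inhibitor, as log2(CPM + 0.5), in the 3 MIN, 3 Adenoma and 3 Sulindac samples, 1 panel per gene with its own vertical scale. Symbols mark the replicate and the black line the group mean; for every gene the 3 Adenoma points lie above the 3 MIN points, and Wif1 shows the widest spread within a group.

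Of the secreted inhibitors, Notum and Wif1 rose from at most 0.819 CPM in any MIN sample to at least 61.3 CPM in every Adenoma sample. Notum, an extracellular enzyme that removes the lipid by which Wnt ligands bind their receptors, was at 0.609, 0.819 and 0.676 CPM in MIN replicates 1 to 3, at 274.9, 393.4 and 395.0 CPM in Adenoma and at 145.1, 180.1 and 172.9 CPM in Sulindac. The 3 groups did not overlap, with MIN lowest and Sulindac between the others. Its log2 fold change between Adenoma and MIN was 8.97 ± 0.23 (SE, adjusted p = 3.87e-08), the 28th highest of the 13744 genes tested. In the GENCODE M21 annotation of GRCm38, 38.1% of the exon bases of Notum overlap genes on the opposite strand (Notumos and Myadml2os), and 29.5% of its 50-base stretches occur in transcripts of other genes. Whether the counting used strand is not given in the sources used here, so reads from Notum and its antisense neighbors cannot be told apart.

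Wif1, which binds Wnt ligands directly and keeps them from their receptors, was at 0.414, 0.431 and 0.703 CPM in MIN, at 61.3, 199.3 and 124.2 CPM in Adenoma and at 4.71, 16.9 and 8.85 CPM in Sulindac. Again the 3 groups did not overlap, and in Adenoma and Sulindac its coefficients of variation, 53.8% and 61.1%, were the largest of the feedback genes with over 1 CPM on average. The log2 fold change between Adenoma and MIN was 7.97 ± 0.52 (adjusted p = 4.52e-06).

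Dkk2 and Dkk3 were detected at low levels only. Dkk2, a secreted ligand of LRP5/6, had 2, 3 and 8 counts in MIN, 17, 21 and 27 in Adenoma and 23, 31 and 71 in Sulindac. Dkk3, a divergent member of the Dickkopf family whose action on Wnt receptors is less well defined, had 2, 3 and 5 counts in MIN, 15, 26 and 35 in Adenoma and 4, 3 and 1 in Sulindac, all given in the order of the replicates. In summed counts per summed depth, Adenoma exceeded MIN 5.88-fold for Dkk2 (exact 95% interval 3.21 to 11.6) and 8.93-fold for Dkk3 (4.60 to 19.4), where the intervals cover counting error only. The adjusted p for Adenoma against MIN was 0.0043 for Dkk2 and 0.0012 for Dkk3, and the call of Dkk2 was lost without MIN replicate 1, MIN replicate 2, Adenoma replicate 2 or Adenoma replicate 3 (adjusted p up to 0.0225). Since both genes reached the test only through their Adenoma samples, these p-values and ratios are not independent of the low-count filter.

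Among the membrane proteins, Rnf43 and Znrf3 are related ubiquitin ligases that clear Frizzled receptors from the cell surface and are themselves held back by R-spondin, which was present in the medium of all groups. Rnf43 was at 131.3, 115.7 and 102.0 CPM in MIN, at 485.7, 558.8 and 507.7 CPM in Adenoma and at 489.7, 588.8 and 585.9 CPM in Sulindac. MIN stood apart and the Adenoma and Sulindac samples overlapped, with a log2 difference between Adenoma and MIN of 2.16 ± 0.13 (adjusted p = 2.72e-06). Znrf3 was at 33.3, 34.3 and 30.6 CPM in MIN, at 86.3, 105.4 and 69.2 CPM in Adenoma and at 53.0, 70.9 and 73.5 CPM in Sulindac. It showed the smallest rise of the 10 genes, 1.41 ± 0.16 on the log2 scale (adjusted p = 9.58e-05), and its Adenoma and Sulindac samples overlapped. Apcdd1, a membrane glycoprotein that interferes with Wnt receptor binding, was at 8.14, 6.25 and 3.95 CPM in MIN, at 75.2, 106.1 and 63.9 CPM in Adenoma and at 19.5, 35.5 and 22.9 CPM in Sulindac. None of its 3 groups overlapped, and it rose by 3.74 ± 0.29 (adjusted p = 1.15e-05) between MIN and Adenoma.

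Axin2, a scaffold of the destruction complex and the most widely used readout of the pathway, was already abundant in MIN, at 291.1, 269.9 and 150.8 CPM, and was at 682.8, 869.7 and 642.4 CPM in Adenoma and 556.3, 646.3 and 602.9 CPM in Sulindac. The lowest Sulindac and the lowest Adenoma sample lay above the highest MIN sample, whereas Adenoma and Sulindac overlapped. The log2 fold change between Adenoma and MIN was 1.63 ± 0.24 (adjusted p = 0.000566). Nkd1, which binds Dishevelled and blocks the relay of the signal from the receptor, was at 2.71, 3.39 and 1.76 CPM in MIN, at 626.0, 849.5 and 761.3 CPM in Adenoma and at 224.8, 463.8 and 383.5 CPM in Sulindac. Its 3 groups did not overlap, and its log2 fold change of 8.15 ± 0.28 (adjusted p = 1.27e-07) between Adenoma and MIN ranked 43rd of all genes tested. Sp5, a zinc finger factor that represses Wnt target genes in the nucleus, was at 6.31, 6.08 and 3.97 CPM in MIN, at 41.2, 55.1 and 63.0 CPM in Adenoma and at 16.5, 25.2 and 17.2 CPM in Sulindac. Each Sp5 value in Adenoma exceeded each Sulindac value, which in turn exceeded each MIN value, and the log2 fold change between Adenoma and MIN was 3.28 ± 0.22 (adjusted p = 5.6e-06).

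To show the DNA next to these changes, the 250 bases before the RefSeq gene start (GRCm38.p6) were searched on both strands for the TCF/LEF motif in 4 versions (CTTTG followed by AA, AT, TA or TT). Windows of 6 of the 10 genes, 7 windows in all, were searched. No RefSeq window was at hand for Notum, Znrf3 and Dkk3, and Apcdd1 was left out of the search. Of the windows searched, only that of Sp5 held the motif, with 2 matches starting 222 and 104 bases before the gene start. Those of Axin2, Nkd1, Wif1, Dkk2 and Rnf43 held none. Among all 32851 windows of this length, 14.8% held a match, so a match in 1 of 7 is near that share, and nothing follows from it about binding. The windows of Sp5, with its matches, and of Axin2 and Nkd1, the 2 cytoplasmic inhibitors, are shown 5′ to 3′ on the plus strand, on which all 3 genes lie (chr2:70474673-70474922 for Sp5, chr11:108920099-108920348 for Axin2 and chr8:88527383-88527632 for Nkd1). Capitals mark the motif, the first match of Sp5 being on the opposite strand.
Sp5: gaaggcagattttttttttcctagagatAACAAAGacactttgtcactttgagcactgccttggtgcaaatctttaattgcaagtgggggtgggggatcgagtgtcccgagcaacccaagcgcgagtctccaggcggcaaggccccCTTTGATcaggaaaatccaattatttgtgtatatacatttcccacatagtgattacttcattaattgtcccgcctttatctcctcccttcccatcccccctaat
Axin2: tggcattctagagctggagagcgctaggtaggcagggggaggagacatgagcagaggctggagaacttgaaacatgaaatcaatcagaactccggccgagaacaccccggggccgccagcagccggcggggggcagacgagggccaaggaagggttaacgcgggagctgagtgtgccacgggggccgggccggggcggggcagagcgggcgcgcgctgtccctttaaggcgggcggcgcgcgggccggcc
Nkd1: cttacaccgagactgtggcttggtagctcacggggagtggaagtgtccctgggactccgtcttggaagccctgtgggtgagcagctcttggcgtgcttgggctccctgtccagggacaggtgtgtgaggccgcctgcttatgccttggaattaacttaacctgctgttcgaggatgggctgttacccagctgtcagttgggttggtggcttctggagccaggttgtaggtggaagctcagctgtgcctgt

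**Figure D2:**
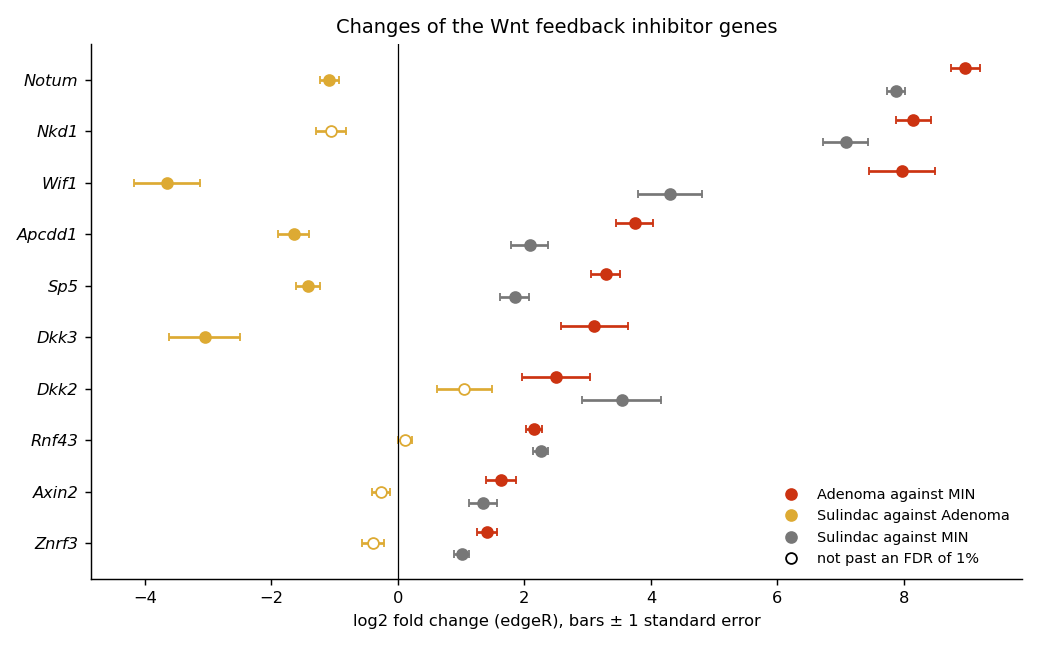
Log2 fold change of each feedback inhibitor in the 3 comparisons, with bars of 1 standard error from edgeR; open points did not pass an FDR of 1%. All Adenoma against MIN points lie to the right of 0, from 1.41 for Znrf3 to 8.97 for Notum, and the Sulindac against Adenoma points run from -3.65 for Wif1 to 1.05 for Dkk2. The point of Rnf43 at 0.11 lies at -0.06 when samples are scaled by library size alone.

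Treatment of adenoma organoids with sulindac went with lower levels of 5 of the 10 genes. Wif1, Dkk3, Apcdd1, Sp5 and Notum fell, and the other 5 (Axin2, Nkd1, Rnf43, Znrf3 and Dkk2) did not pass the FDR of 1%. Of the 12962 genes tested, 9.10% were lower at this threshold and 8.32% were higher. No feedback inhibitor was called higher by edgeR or by DESeq2, and 1 (Dkk2) was higher at an unadjusted p under 0.05. The median log2 fold change of the 10 genes was -1.07, against -0.01 for all genes tested. Without Sulindac replicate 3 only 2 of the 10 genes, Notum and Sp5, were called lower, and 386 of all genes in place of 1179.

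The largest fall was that of Wif1, whose mean CPM in Sulindac was 7.92% of that in Adenoma, a log2 difference of -3.65 ± 0.52 (adjusted p = 0.00153). Its highest Sulindac sample, at 16.9 CPM, lay below its lowest Adenoma sample, at 61.3 CPM, but the call was lost without Adenoma replicate 3 or Sulindac replicate 3 (adjusted p = 0.0102 and 0.0117) and without the low-count filter (0.0228). Apcdd1 retained 31.8% of its Adenoma level (-1.65 ± 0.25, adjusted p = 0.00186), a call lost without Sulindac replicate 3 (0.0135). Sp5 retained 37.0% (-1.42 ± 0.19, adjusted p = 0.00131) and Notum 46.8% (-1.08 ± 0.15, adjusted p = 0.00143), and both calls were kept whichever sample was left out. Dkk3 was 8.73-fold lower in summed counts per depth (exact 95% interval 4.21 to 21.0, counting error only), with an adjusted p of 0.00441, and lost its call without Adenoma replicate 2 or any 1 Sulindac sample. Dkk3 passed the low-count filter only through its Adenoma samples.

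Nkd1 stood at the threshold. Its mean in Sulindac was 47.9% of that in Adenoma, the groups did not overlap, and the log2 difference was -1.05 ± 0.24, at an adjusted p of 0.0102. It passed in DESeq2, with library size alone, in a single fit of all 9 samples and when the replicate number was a blocking term. Over all alternatives its adjusted p (edgeR or DESeq2) ran from 6.52e-05 to 0.0358. With a sample left out its log2 difference ran from -1.26 to -0.81. For Axin2 the Sulindac mean was 82.3% of the Adenoma mean, with a log2 difference of -0.27 (95% interval -0.59 to 0.05, adjusted p = 0.166). Znrf3 stood at 75.7%, with a log2 difference of -0.39 (-0.80 to 0.01, adjusted p = 0.121). Rnf43 stood at 107.2%, with a log2 difference of 0.11 (-0.15 to 0.37, adjusted p = 0.482), which became -0.06 with library size alone. Each of these 3 intervals includes 0, and the samples of the groups overlapped. Dkk2 had a log2 difference of 1.05 (0.07 to 2.03, adjusted p = 0.0918), and its highest count, 71, was in Sulindac replicate 3.

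**Figure D3:**
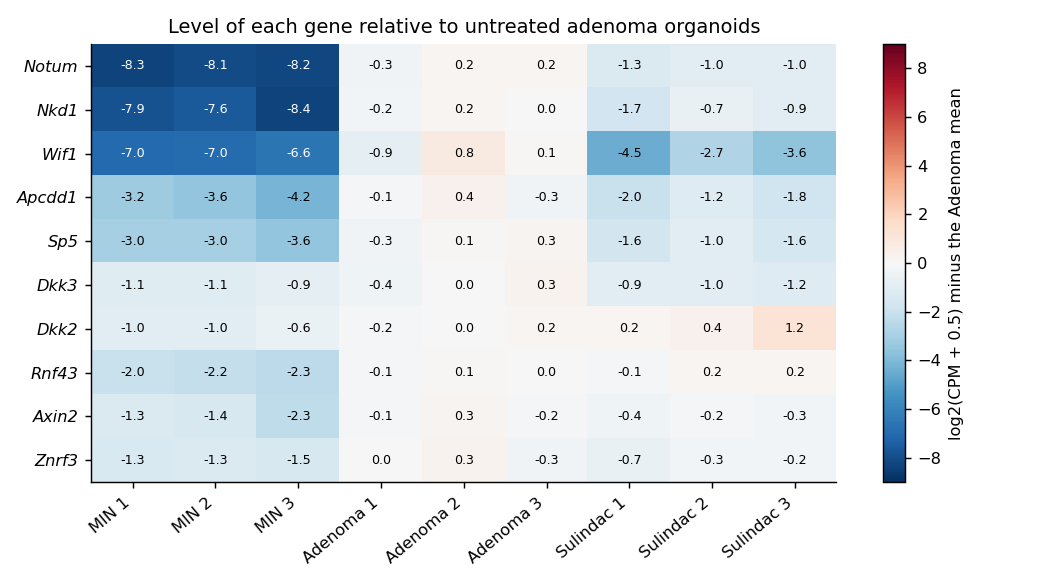
Level of each feedback inhibitor in each sample as log2(CPM + 0.5) minus the mean of the 3 Adenoma samples, with red above and blue below that mean. The MIN columns are blue for every gene, the Sulindac columns are deepest for Wif1, and Rnf43 is near 0 in Sulindac, with a sign that depends on the scaling; differences of Dkk2 and Dkk3 are compressed by the added 0.5 CPM.

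Sulindac-treated organoids were also compared with MIN, which shares its samples with the first comparison and its treated samples with the second, so the values are given side by side rather than as separate evidence. All 9 genes tested were higher in Sulindac than in MIN (edgeR, FDR of 1%), where 23.0% of 13551 genes were called higher, 26.8% lower and 49.7% either way. The log2 fold changes were 7.87 ± 0.15 for Notum, 7.08 ± 0.35 for Nkd1, 4.30 ± 0.50 for Wif1, 3.54 ± 0.62 for Dkk2, 2.25 ± 0.12 for Rnf43, 2.08 ± 0.30 for Apcdd1, 1.84 ± 0.22 for Sp5, 1.34 ± 0.22 for Axin2 and 1.01 ± 0.13 for Znrf3. Thus Wif1 in Sulindac was 19.7-fold above its MIN level in mean CPM, beside 248.5-fold in untreated Adenoma, and Notum 236.7-fold beside 505.3-fold. Dkk3 was the exception: it did not reach the low-count filter, with 8 counts in Sulindac and 10 in MIN over all replicates, a ratio of 1.02 per depth (exact 95% interval 0.351 to 2.88, counting error only). Dkk2 passed the filter only through its Sulindac samples.

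Not all of the genes kept a fixed proportion to Axin2. Counts of each gene were taken as a percentage of the Axin2 counts of the same sample, a ratio that does not depend on sequencing depth or scaling and is read only across samples, since gene lengths differ. Nkd1 stood at 0.929% to 1.25% of Axin2 in MIN, 91.7% to 118.5% in Adenoma and 40.4% to 71.8% in Sulindac. For Notum these were 0.209% to 0.448%, 40.3% to 61.5% and 26.1% to 28.7%, and for Wif1 0.142% to 0.466%, 8.98% to 22.9% and 0.847% to 2.62%. The ratios of Apcdd1 and Sp5 also lay wholly higher in Adenoma than in MIN. By contrast, MIN and Adenoma overlapped for Rnf43 (42.9% to 67.7% and 64.3% to 79.0%) and Znrf3 (11.5% to 20.3% and 10.8% to 12.6%). Those of Dkk2 and Dkk3 overlapped as well. In Sulindac, 6 of the 9 ratios (Nkd1, Notum, Wif1, Dkk3, Apcdd1 and Sp5) lay wholly below their Adenoma range. Rnf43 lay above it, at 88.0% to 97.2% against 64.3% to 79.0%, as did Dkk2. Znrf3 overlapped, at 9.53% to 12.2% against 10.8% to 12.6%. The differences between these ratios are described by their ranges and were not tested. The share of all genes with such separate ranges is not given here. The ratios of Dkk2 and Dkk3 rest on few counts, at most 71 and 35 in any sample.

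**Figure D4:**
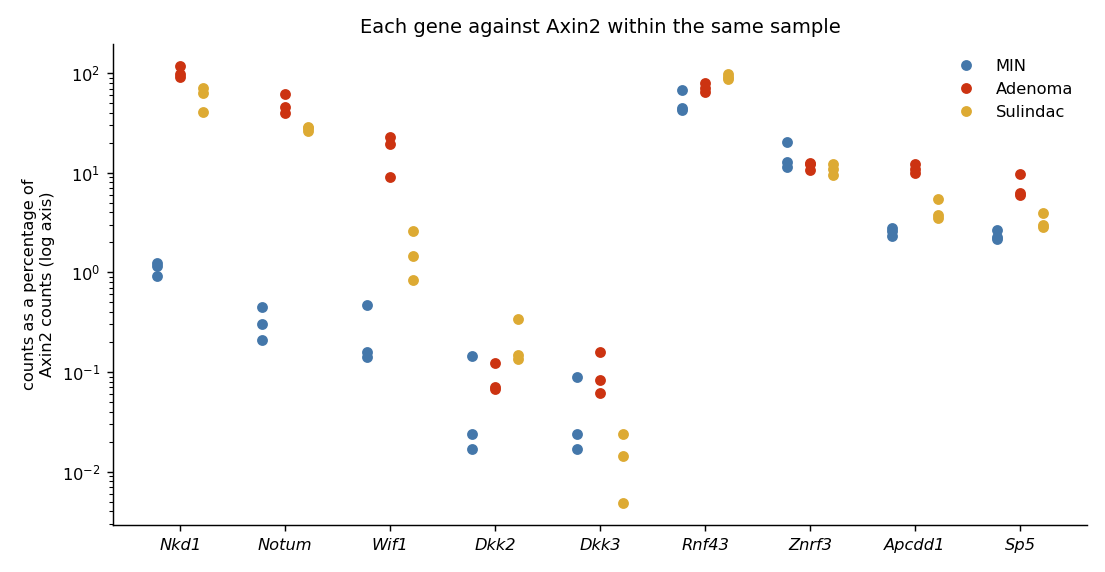
Counts of the other 9 feedback inhibitors as a percentage of Axin2 counts within the same sample, on a log axis, with 1 point per sample and 3 samples per group. Nkd1, Notum and Wif1 lie at no more than 1.25% in the MIN samples and at no less than 8.98% in the Adenoma samples; Rnf43 in Sulindac lies above its Adenoma range.

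Levels of different genes were compared as CPM per kilobase of the longest protein-coding transcript in GENCODE M21, leaving out Apcdd1 (coding transcripts of 1842 to 10879 bases). Transcripts of genes that were kept also differ widely in length, with 477 to 4260 bases for Axin2 and 1022 to 6311 for Znrf3. The order below therefore holds for the longest transcript only. In MIN, Axin2 (55.7 ± 17.8 CPM per kb, SD, n = 3) and Rnf43 (27.0 ± 3.40) led, ahead of Znrf3 (5.19 ± 0.304) and Sp5 (2.60 ± 0.613). Nkd1 followed at 0.641 ± 0.200 and Notum at 0.317 ± 0.0486, and the ranges of Notum and Wif1, and those of Dkk2 and Dkk3, overlapped. In Adenoma, Nkd1 (182.7 ± 27.6), Axin2 (171.7 ± 28.5), Notum (160.2 ± 31.1) and Rnf43 (120.0 ± 8.70) formed an upper group in which neighbors overlapped. Wif1 (55.9 ± 30.1) and Sp5 (25.3 ± 5.27) overlapped each other below it, and Znrf3 stood at 13.8 ± 2.87. In Sulindac the order was Axin2 (141.3 ± 10.6), Rnf43 (128.7 ± 13.1), Nkd1 (87.6 ± 29.8) and Notum (75.1 ± 8.36), with overlapping neighbors, then Znrf3 (10.4 ± 1.77) and Sp5 (9.36 ± 2.31), which overlapped, and Wif1 (4.43 ± 2.71) below them. Dkk2 and Dkk3 were last in every group, at no more than 0.558 CPM per kb in any sample.

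The order of replicates within a group recurred across genes. Sulindac replicate 1 was the lowest of its group for 9 of the 10 genes and Sulindac replicate 2 the highest for 7, and Adenoma replicate 1 was the lowest for 7. Summed over the 10 genes, the levels were 474.0, 437.0 and 294.8 CPM in MIN replicates 1 to 3, 2334, 3139 and 2628 CPM in Adenoma and 1511, 2029 and 1870 CPM in Sulindac. The 3 groups did not overlap in this sum, which Axin2, Nkd1, Rnf43 and Notum dominate. Sulindac replicate 1 also had the lowest total count of the 9 samples, and the part of depth in this ranking was not tested.

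Some genes followed the feedback inhibitors over the 9 samples. Likeness was measured as the root mean square distance between profiles of log2(CPM + 0.5), each centered on its own mean, as a description without a test. The search covered the 13878 genes left by the low-count filter on all 9 samples. Neighbors were sought for feedback inhibitors with at least 1 CPM on average in some group. Nkd1 and Notum were each other's nearest gene, at a distance of 0.28 log2 units. Next came Serpinb11, which had 76.6 ± 13.2 CPM in Adenoma, 39.9 ± 7.40 in Sulindac and 0.0415 ± 0.0174 in MIN (SD, n = 3), at 0.48 from Nkd1 and 0.49 from Notum. Il33 (0.58 from Nkd1), an alarmin of the IL-1 family, stood at 1.28 ± 0.489 CPM in MIN, 210.6 ± 39.6 in Adenoma and 105.7 ± 24.1 in Sulindac. Prom2, the third neighbor of Notum (0.62), was at 0.0982 ± 0.0298 CPM in MIN, 70.1 ± 7.34 in Adenoma and 78.2 ± 3.11 in Sulindac. Its mean, unlike that of Notum, was not lower in Sulindac than in Adenoma. The nearest genes to Axin2 were Snn (0.14), Fbxo10 (0.18) and Fam171a2 (0.19). Within the feedback inhibitors, Axin2 and Znrf3 (0.29) and Apcdd1 and Sp5 (0.33) were nearest neighbors of each other, while Wif1 was 1.41 from its nearest, Apcdd1.

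The other genes of the pathway were taken in lists by role. In Adenoma against MIN, 1 of the 8 tested genes of the destruction complex and beta-catenin was called, Btrc, the receptor subunit of the ubiquitin ligase for beta-catenin, which was higher by 1.57 on the log2 scale. Ctnnb1, which encodes beta-catenin, differed by 0.35 on the log2 scale (adjusted p = 0.045) and Apc by 0.14 (adjusted p = 0.642). Apc counts were 6159 to 8205 in MIN and 4042 to 8421 in Adenoma, and such counts do not check a point mutation. The median log2 fold change of these 8 genes was 0.07. Without Adenoma replicate 3, 2 of them were called.

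Of the Wnt ligand list, which includes the secretion factors Porcn and Wls, 8 of 14 tested genes were higher in Adenoma and 1 was lower (median 1.41). The counts of Wnt7b were 2 to 5 per MIN sample and 1673 to 1954 per Adenoma sample, those of Wnt6 3 to 10 and 1406 to 2491, and those of Wnt10a 2 to 3 and 229 to 331. Those 3 ligands had at most 10 counts in any MIN sample and at least 229 in every Adenoma sample. The ligand that was lower was Wnt3, which Paneth cells supply to neighboring stem cells, whose level was 16.6 ± 3.77 CPM in MIN against 1.77 ± 0.379 in Adenoma (log2 fold change -3.22). Of the 5 Paneth cell markers, Lyz1, Itln1 and Ang4 were also lower in Adenoma, and Mmp7 and Pla2g2a were higher. Their part in this was not tested.

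Among Wnt and R-spondin receptors, 6 of 15 tested genes were lower in Adenoma (Fzd1, Fzd4, Fzd5, Fzd8, Lgr4 and Lgr5) and 2 were higher (Fzd6 and Fzd9), with a median of -0.40 and with 5 called without MIN replicate 2 or MIN replicate 3. Fzd8 was counted 83 to 124 times per MIN sample and 0 times in all Adenoma and Sulindac samples. Fzd5 fell by 3.12 on the log2 scale, and Lgr5, the stem cell receptor for R-spondin, fell by 1.10 (adjusted p = 0.00149). Of the TCF/LEF factors and cofactors, 4 of 11 tested genes were higher and none was called lower. Lef1 rose by 4.77, from 0.622 ± 0.109 to 17.0 ± 0.925 CPM, and Tcf7 by 1.49.

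Of 21 other Wnt inhibitors, 7 were expressed enough to be tested. Tpbg (log2 fold change 1.91), Dact3 (1.69), Dact2 (1.01) and Kremen1 (0.45) were higher in Adenoma, a count of 4 that was 2 without MIN replicate 1 or Adenoma replicate 2. Other intestinal beta-catenin/TCF target genes went both ways: 8 of 15 tested were higher and 4 were lower (median 0.76). Prox1 (6.29), Tnfrsf19 (4.12), Sox9 (1.42) and Ascl2 (1.37) were higher, Lgr5, Slc12a2, Cdx1 and Lbh were lower, and Myc differed by -0.10 (adjusted p = 0.482). Cdx1, an intestinal differentiation factor, was counted 3627 to 5330 times per MIN sample and 2 to 5 times per Adenoma sample. The Wnt target list shares Lgr5 with the receptor and stem cell lists, Ascl2 with the stem cell list, and Mmp7 with the Paneth cell markers.

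**Figure D5:**
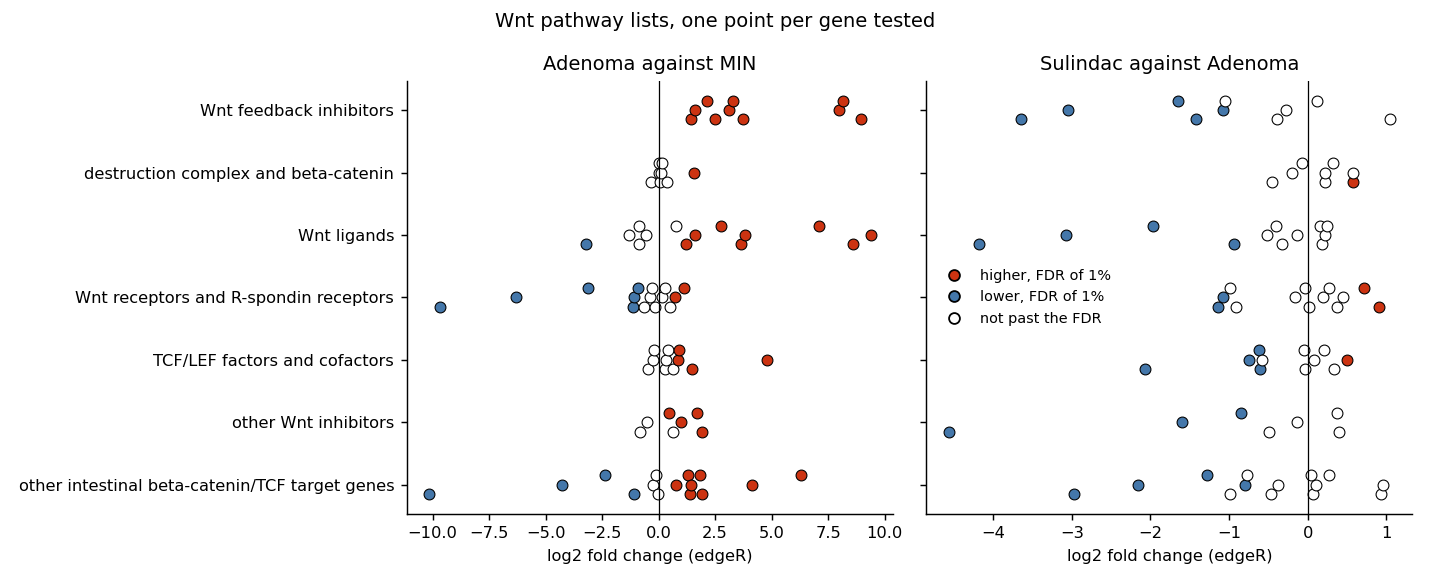
Log2 fold change of each tested gene of the Wnt pathway lists in Adenoma against MIN (left) and Sulindac against Adenoma (right), with filled points past an FDR of 1% in edgeR, red for higher and blue for lower; the 2 panels have different scales. All 10 feedback inhibitors are red on the left, 5 are blue on the right, and Rnf43, whose small positive value turns negative with library size alone, is among the open points.

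In Sulindac against Adenoma, 4 of 12 tested ligands were lower and none was called higher: Wnt10b, Wnt3, Wnt5b and Wnt10a (median -0.37). Wnt3 fell by 3.07 on the log2 scale, to 5 to 8 counts per sample, and Wnt5b had a log2 difference of -1.97. Receptors split, with Fzd5 (0.90) and Lgr4 (0.72) higher and Fzd9 (-1.14) and Fzd2 (-1.08) lower of 13 tested (median 0.01). Of 11 TCF/LEF factors and cofactors, Tcf7 (-0.62), Tcf7l1, Tle1 (-0.61) and Tle3 (-0.75) were lower and Tcf7l2 was higher. For Lef1 the log2 difference was -0.59 (adjusted p = 0.0211). Of the other inhibitors, 3 of 7 were lower: Sfrp5, with 31 to 47 counts in Adenoma and 1 to 2 in Sulindac, Tpbg (-1.60) and Dact2 (-0.85). Of 14 tested target genes, 4 were lower: Prox1 (-2.97), Mmp7 (-2.16), Sox4 (-1.28) and Ephb3 (-0.80). Lgr5 (-0.99, adjusted p = 0.016), Ascl2 (-0.77, adjusted p = 0.0291), Sox9 (-0.38, adjusted p = 0.027), Myc (0.11, adjusted p = 0.545) and Ctnnb1 (-0.07, adjusted p = 0.693) did not pass. In the destruction complex, Csnk1a1 (0.57), a kinase that primes beta-catenin for breakdown, was the 1 gene called of 8, and the count was 2 without Adenoma replicate 3 and 0 without any other single sample. The 4 called ligands were 2 without Adenoma replicate 2, Sulindac replicate 1 or Sulindac replicate 3. The 4 called receptors were 2 without Adenoma replicate 2 and 1 without Sulindac replicate 1 or 3. The 5 called TCF/LEF genes were 3 without Adenoma replicate 1 or 2, 2 without Sulindac replicate 2 and 0 without Sulindac replicate 1 or 3.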

How the data were processed

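RNA-seq of 9 organoid samples was analyzed from 1 table of whole-number read counts per gene symbol, deposited by the authors without normalization. The submitters' processing notes name Bowtie2 2.2.4, RSEM and the genome build mm9; the annotation and the strand setting are not given in the sources used here. The titles of the samples gave groups and replicate numbers. MIN replicate 1 has 3 columns, the third being the sum of the others in all 23955 rows; the runs differed by little more than sampling noise, and the sum was used as 1 sample. Date-like symbols stood in 27 rows, which stayed in the fit unnamed.

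The counts passing filterByExpr were TMM-normalized and tested in R 4.3.3 by the quasi-likelihood F test of edgeR 4.0.16 (robust glmQLFit), over all genes and only the groups compared, with Benjamini-Hochberg adjustment and an FDR of 1%, as in the study. The standard error is the absolute log2 fold change over the root of F. CPM levels, and percentages and fold changes of mean CPM, use library size multiplied by TMM factors computed over all 9 samples. As alternatives, scaling was by RLE or by library size alone, the filter was dropped or set to 10 counts in each sample, all 9 samples were fitted together, the replicate number was added as a block, each sample was left out in turn, and the test was DESeq2 1.42.0 or the call an FDR of 5% or a minimum change of 2-fold. With library size alone the median log2 difference over all genes was 0.12 in Adenoma against MIN and -0.18 in Sulindac against Adenoma.

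Same-numbered Adenoma and MIN samples deviated weakly together from their group means (correlations of 0.13, 0.11 and 0.19 across genes). Differently numbered pairs lay at -0.15 to 0.07. Whether the numbers mark pairs was not tested, and the sources do not say whether such samples share a mouse. The main fit did not use the numbers. Nothing says more on the independence of the replicates than the term biological. The p-values set each group difference against the spread between these samples, as moderated across genes by the fit. On counts simulated for Adenoma against MIN (13744 genes, 200 changed), 57 of 100 changes of 2-fold and 90 of 100 of 4-fold were recovered, with 4 false calls. In the data 5314 of the 13744 genes were called, far more than were changed in the simulation. The recovery rates therefore need not hold for the real fit. The genes named are the 10 members, up to 4 genes per pathway list and comparison with the largest change past the threshold and no overlap between groups, and Lgr5, Ascl2, Sox9, Myc, Ctnnb1, Tcf7, Lef1 and Wnt3. Apc and other called genes were added after their values were seen. The members and lists were chosen with earlier results of these data known. Promoter windows came from RefSeq (GRCm38.p6), and transcript lengths and overlaps from GENCODE M21; files' own coordinates were not used.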

Additional observations from a re-analysis of the deposited data

How the results depend on the processing

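Where tested, the 10 members kept their direction in the alternatives run, except Rnf43 in Sulindac against Adenoma, which was -0.056 with library size alone. In Adenoma against MIN, 10 members were higher, 9 to 10 when a sample was left out and 8 with at least 10 counts in every sample, where Dkk2 and Dkk3 were not tested. In Sulindac against MIN, 9 were higher, and 8 with that minimum. In Sulindac against Adenoma, 5 were lower, 2 to 5 when a sample was left out, and 6 with library size alone, all 9 samples in one fit, the replicate block, DESeq2 or an FDR of 5%, where Nkd1 was added.

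With the replicate block, the members' calls changed only for Nkd1 in Sulindac against Adenoma (-1.10, adjusted p = 0.00248). Same-numbered Sulindac samples had correlations of 0.25, 0.21 and -0.07 with Adenoma and -0.03, 0.40 and 0.25 with MIN. Differently numbered pairs reached 0.13 and 0.10, so the 2 kinds of pair overlapped. Whether the Sulindac numbers mark pairs was not tested. The block also gave 0 called genes of the destruction complex and 2 of the TCF/LEF factors in Sulindac against Adenoma, and moved no other count by over 1.5 times.

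In Sulindac against Adenoma, all genes called higher and lower were 1078 and 1179, and 603 and 1983 with library size alone, 2034 and 2374 at an FDR of 5%, 365 and 703 with a 2-fold minimum, 423 to 1403 and 386 to 1488 when a sample was left out, and 1778 higher with DESeq2. Of its lists, the destruction complex had 2 called genes with no filter or all 9 samples, 4 with DESeq2 or an FDR of 5%, 0 with a 2-fold minimum and 0 to 2 with a sample left out. Ligands had 2 with at least 10 counts and 2 to 3 with a sample left out. Receptors had 7 with DESeq2 or an FDR of 5%, 2 with a 2-fold minimum and 1 to 4 with a sample left out. TCF/LEF factors had 2 with all 9 samples, 1 with a 2-fold minimum and 0 to 4 with a sample left out. Other inhibitors had 5 at an FDR of 5%, and target genes 7 with DESeq2 and 9 at an FDR of 5%.

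In Adenoma against MIN, the destruction complex had 2 at an FDR of 5% and 1 to 2 with a sample left out, ligands 3 with at least 10 counts, receptors 5 to 8 and other inhibitors 2 to 3 with a sample left out, and TCF/LEF factors 7 at an FDR of 5% and 2 with a 2-fold minimum. In Sulindac against MIN, all genes higher and lower were 1501 and 2104 with a 2-fold minimum, the destruction complex had 7 at an FDR of 5% and 1 with a 2-fold minimum, ligands 2 with at least 10 counts, receptors 5 with a 2-fold minimum, and TCF/LEF factors 1 with a 2-fold minimum and 2 to 6 with a sample left out. Higher minimums leave fewer genes to call; the cause of the other shifts was not tested. Depth limits Dkk2 and Dkk3, which had at most 71 and 35 counts in any sample.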

Other observations

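The gene whose profile over the 9 samples was nearest to that of Wif1 was Prox1, a homeobox factor and beta-catenin/TCF target in intestinal adenomas, at a distance of 0.65 log2 units among 13878 genes, less than the 1.41 of its nearest fellow feedback inhibitor. This pair was picked after its values were seen and was not tested. Prox1 was at 3.00, 3.47 and 2.95 CPM in MIN, at 234.8, 374.0 and 127.7 CPM in Adenoma and at 21.6, 38.1 and 34.0 CPM in Sulindac. Like Wif1, it had its highest value in Adenoma replicate 2 and its highest Sulindac value in replicate 2, but its lowest Adenoma value was in replicate 3, where that of Wif1 was in replicate 1. The nearest genes to Sp5 included Ifitm3 (0.21), an interferon-induced membrane protein, and those to Rnf43 were Prnp (0.14), Onecut3 (0.15) and Slc9a3r2 (0.16).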
